A study of Arabidopsis thaliana with 4 samples.

Results

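The genes described here are 60 bright nuclear genes of Arabidopsis thaliana whose signal was lower on both arrays labelled 35S:OsGSTU4 than on both arrays labelled WT. They were taken from 4741 bright nuclear genes, themselves part of 13350 genes with a probe set of their own. RNA of whole seedlings, 14 days old, of ecotype Columbia was hybridised to 4 Affymetrix arrays, 2 from GST-overexpression seedlings (35S:OsGSTU4) and 2 from wild-type seedlings (WT), all raised without stress under 16 h of light and 8 h of dark. These light hours are those of the sample records, while the study's methods give a shorter light period for its plants. The sample labels call the transgene GST only, while the series text speaks of a GRX line, so that the sources do not name the transgene of these arrays in the same way. The study names it OsGSTU4, a rice tau class glutathione S-transferase read from the constitutive CaMV 35S promoter, and describes the arrays of a single transgenic line, so that the effect of the transgene and of that line cannot be told apart. No further treatment or allele is given, and both genotypes share the ecotype and the growth conditions. In RNA of whole seedlings, fewer cells of a type and less RNA per cell cannot be told apart.

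Glutathione S-transferases join glutathione to reactive or foreign compounds, and plants carry large families of them next to cytochromes P450 and glycosyltransferases with related tasks. Genes that answer stress, such as those for secreted peroxidases, lipid transfer proteins, autophagy proteins and proteins of late embryogenesis, are known to be induced in seedlings by wounding, pathogens, dehydration or oxidants. An array of this type measures each transcript through several short oligonucleotides that together form its probe set, and the value here is a log2 signal, so that a difference of -1 is a halving of the signal.

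The members were chosen by a fixed rule from the same values that are described below. A gene had to lie on chromosomes 1 to 5, have a probe set annotated to that gene alone, average a log2 signal of 8 or more over the 4 arrays, and carry a symbol outside UGT, GST, CYP, WRKY, MYB and HSP. Where a gene had several probe sets the brightest was used. Both 35S:OsGSTU4 arrays had to lie below both WT arrays, and the 60 genes with the most negative difference (mean of 35S:OsGSTU4 minus mean of WT) were kept. The groups of all 60 therefore do not overlap by construction. Over the 4741 bright nuclear genes, 822 (17.3%) had both 35S:OsGSTU4 arrays below both WT arrays and 1065 (22.5%) had both above. In the limma fit over all 22746 probe sets, 532 (2.34%) were lower and 542 (2.38%) higher at a fold of 2 or more and an unadjusted p of 0.05 or less, and 0 passed an adjusted p of 0.05. The level and direction of the member values are a description and carry no test.

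The direction taken from the labels opposes that of the study's own list of changed genes. Of the probe sets on that printed list, 63 were found among the deposited values and 63 had the opposite sign. Of the printed loci, 17 had a probe set of their own here, and 17 had the opposite sign. Members AT1G10585, AT1G26380, AT3G60420, AT4G12500, AT4G38080 and AT5G45630 are on the list by locus, all 6 printed there as higher. By probe set 6 members are on it too, but the printed list sets their probe sets beside other loci than the annotation used here. The list comes from the study's own arrays of these genotypes, so it is not independent evidence of either direction, and since the methods describe more replicates than the 2 arrays per genotype used here, it may rest on further arrays not analysed here. The study's real-time PCR of selected genes, read in the direction of its list, is a separate measurement and is not analysed here. The labels were kept as deposited, and every statement of lower or higher below is about arrays so labelled.

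The differences of the members lay between -1.49 and -0.75, with a median of -0.84, beside a median of 0.02 over all bright nuclear genes. The other 762 genes with separated lower arrays had a median of -0.31. A fold of 2 or more separated the genotypes in 7 members, beside 7 of all 4741 genes (0.148%). The mean signal of members ran over 8.04 to 12.72 with a median of 9.14, close to the 9.27 of the other 4681 bright genes, and 27 members lay between 8 and 9, 16 between 9 and 10, 12 between 10 and 11, and 5 at 11 or more. By array, the median member signal was 8.87 and 8.69 for 35S:OsGSTU4 replicates 1 and 2, against 9.93 and 9.42 for WT replicates 1 and 2. Over all bright nuclear genes the same medians were 9.32 and 9.31 for 35S:OsGSTU4 against 9.30 and 9.28 for WT. The array medians of all bright genes thus differed by far less than those of the members.

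**Figure D1:**
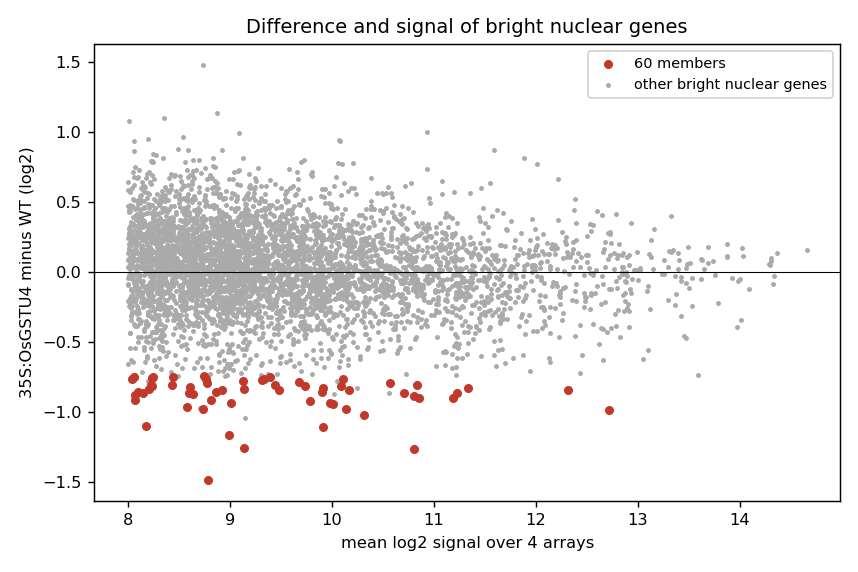
Difference between genotypes (35S:OsGSTU4 minus WT, log2, vertical axis) against the mean log2 signal over 4 arrays (horizontal axis) for 4741 bright nuclear genes, 1 point a gene, with the 60 members in red. The members fill the lower edge from -0.75 to -1.49, and their signals span 8.04 to 12.72.

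The member furthest from WT was AT3G60420, for which the sources used here give no function. It measured 8.49 and 7.59 in 35S:OsGSTU4 seedlings, against 9.91 and 9.15 in WT seedlings (replicates 1 and 2), a difference of -1.49 with a standard error of 0.50 from a limma fit over all 22746 probe sets. Replicate 1 was the higher array in each genotype, and the gap between the nearest arrays of the genotypes was 0.66. A second, dim probe set of this gene read 4.34 and 0.96 in 35S:OsGSTU4 against 2.44 and 2.82 in WT, so that its arrays overlapped, and no other member had a second probe set.

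AT4G12500, described by the study as a member of the lipid transfer protein family, measured 10.25 and 10.10 in 35S:OsGSTU4 seedlings against 12.23 and 10.65 in WT seedlings. Its difference of -1.26 (standard error 0.64) leaned on WT replicate 1, the brightest of its arrays by more than the genotypes were apart, and was -0.48 without that array and -2.05 without WT replicate 2. Its near neighbour AT4G12490, only 2 steps away in the order of protein-coding genes on chromosome 4, measured 9.83 and 8.88 against 10.95 and 9.98, a difference of -1.11 (standard error 0.56). In both neighbours WT replicate 1 was the highest array and 35S:OsGSTU4 replicate 2 the lowest, while the groups of AT4G12490 were only 0.15 apart at their nearest arrays and its difference was -0.63 when 35S:OsGSTU4 replicate 2 was left out and -0.62 when WT replicate 1 was. Whether the probes of the pair read each other's transcripts was not tested.

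AT4G36430 measured 8.78 and 8.24 in 35S:OsGSTU4 seedlings against 10.47 and 9.07 in WT seedlings (difference -1.26, standard error 0.61). AT1G26380, described by the study as an FAD-binding domain protein, measured 8.88 and 7.93 against 10.11 and 9.04 (difference -1.17, standard error 0.59). Both genes had their highest value on WT replicate 1, and in both the WT arrays were more than 1 log2 unit apart, which is wider than the gap between genotypes. Without WT replicate 1 the difference was -0.56 in AT4G36430 and -0.63 in AT1G26380. It was -1.96 in AT4G36430 without WT replicate 2, and -0.69 in AT1G26380 without 35S:OsGSTU4 replicate 2. AT4G16260 measured 9.99 and 9.62 in 35S:OsGSTU4 against 11.58 and 10.07 in WT (difference -1.02, standard error 0.63). Its nearest arrays were 0.08 apart, and the difference was -0.27 without WT replicate 1 and -1.77 without WT replicate 2.

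AT5G45630, of unknown function, stood out among the members with a fold of 2 or more by its close replicates. It measured 7.78 and 7.47 in 35S:OsGSTU4 seedlings against 8.88 and 8.57 in WT seedlings, a difference of -1.10 with a standard error of 0.27. Its genotypes were 0.79 apart at their nearest arrays, more than the spread within either, and it was the only member of those 7 for which this held. The brightest of the leading members was AT3G16530, with 12.54 and 11.92 in 35S:OsGSTU4 against 13.63 and 12.80 in WT (difference -0.99). Replicate 1 was again the higher array in both genotypes, and without WT replicate 1 the difference was -0.57.

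**Figure D2:**
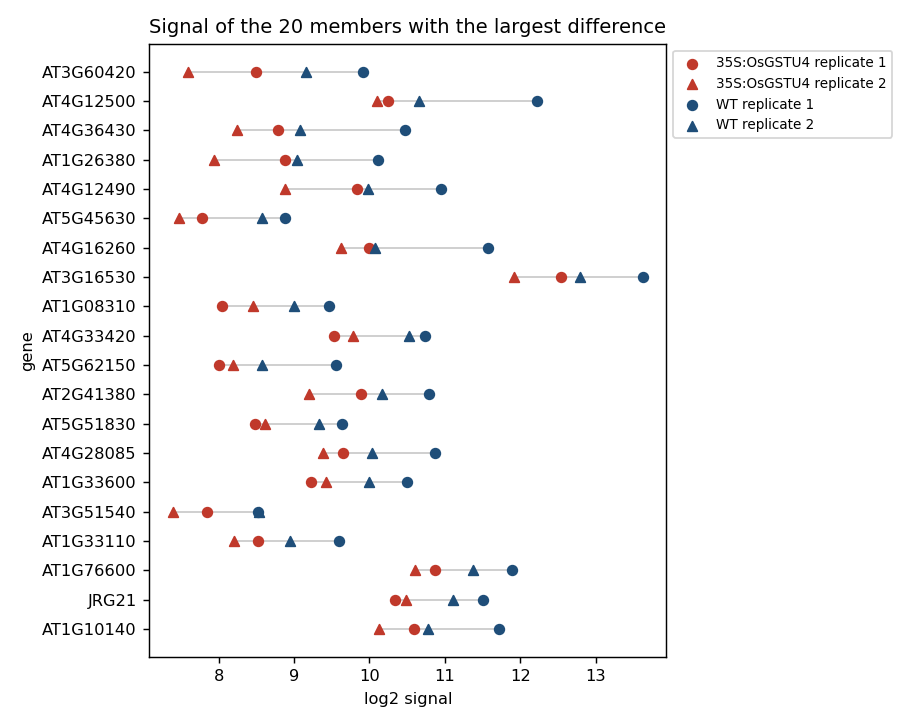
Log2 signal (horizontal axis) of the 20 members with the most negative difference (vertical axis, largest difference at the top), 35S:OsGSTU4 arrays in red and WT arrays in blue, circles for replicate 1 and triangles for replicate 2. Grey lines join the lowest and highest array. All red symbols lie left of the blue ones by the rule of choice, and WT replicate 1 is the furthest right for all but AT3G51540.

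The next members had differences between -0.98 and -0.91. AT1G08310 measured 8.04 and 8.45 in 35S:OsGSTU4 against 9.46 and 8.99 in WT, and AT4G33420 measured 9.53 and 9.78 against 10.74 and 10.53. In both genes the gap between genotypes, 0.54 and 0.75, was larger than the spread within either. AT5G62150 measured 8.00 and 8.19 in 35S:OsGSTU4 against 9.55 and 8.57 in WT, and AT2G41380 measured 9.89 and 9.20 against 10.79 and 10.17. For this pair of genes the spread between replicates exceeded the gap. The difference of AT5G62150 was -0.48 without WT replicate 1 and -1.46 without WT replicate 2, and that of AT2G41380 was -0.60 without 35S:OsGSTU4 replicate 2.

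AT5G51830 measured 8.48 and 8.61 in 35S:OsGSTU4 seedlings against 9.64 and 9.32 in WT seedlings. AT4G28085 measured 9.65 and 9.39 against 10.88 and 10.03, and AT1G33600 measured 9.23 and 9.42 against 10.50 and 9.998. The groups were 0.71 apart in AT5G51830, 0.38 in AT4G28085 and 0.57 in AT1G33600, and WT replicate 1 was the highest array of all 3 genes. AT3G51540 measured 7.84 and 7.39 in 35S:OsGSTU4 against 8.52 and 8.54 in WT. Its WT arrays differed by less than those of any other gene among the leading 20. AT1G33110 measured 8.52 and 8.20 against 9.60 and 8.94. Without WT replicate 1 the difference was -0.51 in AT4G28085 and -0.59 in AT1G33110.

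AT1G76600 measured 10.87 and 10.60 in 35S:OsGSTU4 against 11.89 and 11.38 in WT, and AT1G10140 measured 10.60 and 10.13 against 11.71 and 10.78. The arrays of AT1G10140 were 0.18 apart at the nearest, and its difference was -0.42 without WT replicate 1 and -1.35 without WT replicate 2. JRG21, jasmonate-regulated gene 21, is named for its response to the wound hormone jasmonate, and it measured 10.33 and 10.48 in 35S:OsGSTU4 against 11.50 and 11.11 in WT (difference -0.90, standard error 0.27). Its gap of 0.63 exceeded the spread in both genotypes. Of 24 genes that the RefSeq table names for jasmonate only 2 were measured, that is, had a probe set annotated to them alone. JRG21 was the bright one. The other was the methyltransferase gene JMT, whose enzyme forms methyl jasmonate and which read 0.43 and 2.18 in 35S:OsGSTU4 against 3.94 and 5.54 in WT, far below the brightness limit.

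A handful of further members carry a name or description in the sources used here, and their values are given for that reason, after they had been seen. MGL, methionine gamma-lyase, breaks methionine down to a volatile thiol, ammonia and a keto acid. It measured 11.19 and 10.65 in 35S:OsGSTU4 seedlings against 11.92 and 11.59 in WT seedlings, a difference of -0.83 (standard error 0.32). Its spread in 35S:OsGSTU4 was wider than the gap of 0.39. Of 12 bright genes that the RefSeq table names for methionine, 2 had separated lower arrays and 4 separated higher ones. Over all bright genes these shares were 17.3% and 22.5%, and the median difference of the 12 was -0.09. The other lower gene was MSRB3, a methionine sulfoxide reductase, which repairs oxidised methionine. MSRB3 measured 8.70 and 8.69 in 35S:OsGSTU4 against 9.57 and 8.97 in WT. The separated higher genes were SAMDC at 0.17, MAP1C at 0.20, MAP1D at 0.34 and SAMTL at 0.56, so the members of this name group did not share a direction.

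LEA4-5 codes for a late embryogenesis abundant protein, a class of hydrophilic proteins that accumulates in seeds and under water loss. It measured 7.58 and 7.75 in 35S:OsGSTU4 against 8.12 and 8.92 in WT (difference -0.86, standard error 0.38). Here WT replicate 2 was the highest array, unlike in most members, and without it the difference was -0.46. Of 3 bright genes with this name, 2 had separated lower arrays, beside 17.3% of all bright genes. They were LEA4-5, separated by the rule, and AT2G46140 (LEA27), which had 8.01 and 7.75 against 8.83 and 8.15. AT2G44060 (LEA26) differed by -0.08 with overlapping arrays. The dimmer LEA18 (-0.97) and AtLEA4-1 (-0.44) overlapped too.

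Class III peroxidases are secreted haem enzymes that oxidise phenolic compounds of the cell wall with hydrogen peroxide. The member that the RefSeq table names as such a peroxidase, AT5G66390 (PRX72), measured 7.88 and 7.43 in 35S:OsGSTU4 against 8.80 and 8.04 in WT. Its difference was -0.76 (standard error 0.40). Replicate 1 was higher in each genotype, the nearest arrays were 0.16 apart, and without WT replicate 1 the difference was -0.39. All 3 bright genes named as such peroxidases had negative differences, and 2 of them had separated lower arrays. Over all bright genes these shares were 46% and 17.3%. The 2 were the member AT5G66390, separated by the rule, and AT5G64120 (PRX71). The third, Prx37, measured 9.98 and 9.42 in 35S:OsGSTU4 against 11.09 and 9.47 in WT, where WT replicate 1 alone lay above the rest. The dimmer PRX52 (-0.81), PRX25 (-0.22) and PER36 (0.38) had overlapping arrays. Only 31 genes carry such a name in the RefSeq table, and 6 of them had a probe set of their own. Peroxidase genes known there by locus tag alone were not counted, so other members may belong to this family.

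AT1G10585, described as a transcription factor, measured 9.52 and 9.48 in 35S:OsGSTU4 seedlings against 10.47 and 10.20 in WT seedlings (difference -0.83, standard error 0.24). AT4G38080, described as a hydroxyproline-rich glycoprotein, a class of cell wall proteins, measured 7.56 and 7.70 against 8.54 and 8.47 (difference -0.88, standard error 0.22). In both genes the gap between the genotypes was larger than the spread within either.

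ATG8H belongs to the ATG8 proteins, which are attached to the lipid of the growing autophagosome, the membrane sac that encloses cell contents for degradation. ATG8H measured 9.61 and 9.04 in 35S:OsGSTU4 seedlings against 10.47 and 9.80 in WT seedlings, a difference of -0.81 (standard error 0.40). Its replicates were further apart than its genotypes, which were separated by 0.19, and the difference was -0.52 when 35S:OsGSTU4 replicate 2 was left out and -0.48 when WT replicate 1 was. The RefSeq table names 42 autophagy genes, of which 11 had a probe set of their own, all 11 bright. Their median difference was -0.15, 9 were below 0, 6 had separated lower arrays and 0 had separated higher ones, beside 17.3% and 22.5% of all bright genes. This group was looked up after ATG8H had been found among the members, and its genes were named after their values were seen.

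AT5G66930 (ATG101), a partner of the kinase that starts autophagy, came next in the group. It measured 8.29 and 8.41 in 35S:OsGSTU4 against 9.01 and 8.98 in WT, a difference of -0.65. Its replicates lay closer together than its genotypes. APG8A, another ATG8 gene, measured 10.55 and 10.46 against 11.14 and 10.66, and ATG8D measured 9.52 and 9.51 against 9.80 and 9.79. ATG8D had the tightest replicates of the group, at a difference of -0.28. ATG8C differed by -0.15 and ATG3, whose enzyme attaches ATG8 to lipid, by -0.08, both with separated arrays. APG8H (AT3G15580), ATG8G, ATG8B, ATG8E and ATG8F overlapped, with differences between -0.26 and 0.04. Since ATG8 genes are much alike in sequence, reads of a probe set from a sister transcript cannot be told apart here.

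**Figure D3:**
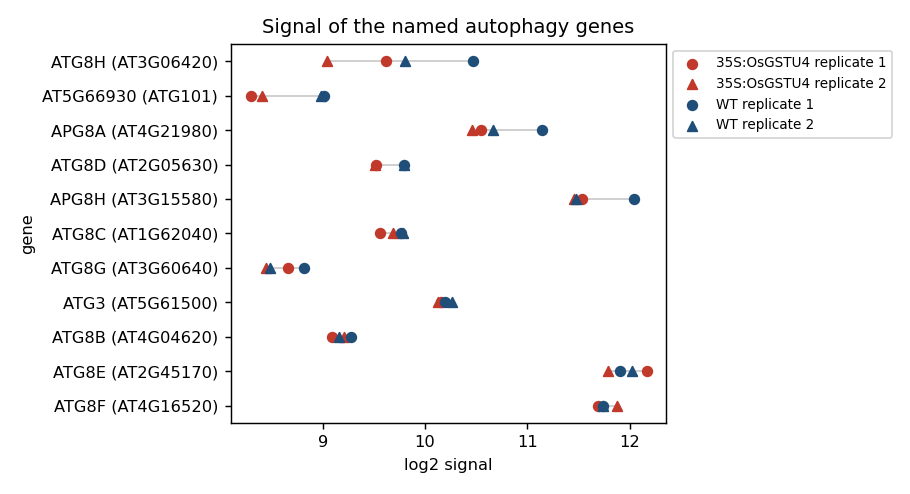
Log2 signal (horizontal axis) of the 11 measured autophagy genes (vertical axis, most negative difference at the top), 35S:OsGSTU4 arrays in red and WT arrays in blue, circles for replicate 1 and triangles for replicate 2. The differences run from -0.81 in ATG8H to 0.04 in ATG8F, and only ATG8H is a member.

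Gene lists for hormone, stress, growth and organelle functions, 25 in all, held at most 17 bright genes each. With 60 members among 4741 bright genes, few members could thus fall on any list. A single list held a member. This was the list of genes known to respond to reactive electrophiles and foreign compounds. Of its 19 genes 12 were measured, with the families left out by the rule included, and all 12 had a negative difference. Over 13176 measured nuclear genes outside those families 46.6% did, so the gene sets are not quite alike. Outside those families, 5 genes of the list were bright. Of the bright ones 3 had separated lower arrays and 0 separated higher ones, with a median of -0.67, beside 17.3% and 22.5% of all bright genes. The list was chosen with earlier results of these arrays known. The member was AT2G21640, with 8.22 and 7.21 in 35S:OsGSTU4 against 8.79 and 8.37 in WT (difference -0.87, standard error 0.47). Its 35S:OsGSTU4 arrays were more than 1 log2 unit apart, and the difference was -0.36 without replicate 2 of that genotype and -1.37 without replicate 1. AT3G04000 (-0.71) and AER, an alkenal reductase that acts on reactive carbonyls (-0.67), had separated lower arrays but were not members. AT1G68620 (-0.65) and NDB2, a mitochondrial NAD(P)H dehydrogenase (-0.35), overlapped.

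Each of the other 24 lists held 0 members, which says little of their functions, since few of their genes were bright. In the list of calcium sensors, CML42 (-0.50) and CML30 (-0.46) had separated lower arrays and CML41 (-0.78) and CML38 (-0.22) overlapped, so that the difference of CML41 passed the size of the last member but not the rule on arrays. That list was gathered by symbol and also took in CBL (AT3G57050), a different gene of that symbol and not a calcium sensor. CBL was higher by 0.21, the only bright gene of the list with separated higher arrays. Of 20 genes listed for salicylate defence 2 were measured and 1 had separated lower arrays, and none of the 4 bright genes for cold and dehydration did. The lists for ribosomal proteins, water channels and ERF factors had 0 genes with a probe set annotated to them alone. Nothing can be said of these groups here, though the array may hold probe sets for them.

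The spread between replicates had a common form across the members. WT replicate 1 was above WT replicate 2 in 49 of 60 members (81.7%), beside 65.1% of the other separated lower genes and 49.4% of all other bright genes. 35S:OsGSTU4 replicate 1 was above replicate 2 in 44 members (73.3%), beside 49.2% and 51.4%. In 39 members (65%) WT replicate 1 was the highest and 35S:OsGSTU4 replicate 2 the lowest array, an order found in 33.1% of the other separated lower genes. Of the remaining members, 10 had WT replicate 1 highest with 35S:OsGSTU4 replicate 1 lowest, 5 had WT replicate 2 highest with 35S:OsGSTU4 replicate 2 lowest, and 6 had WT replicate 2 highest with 35S:OsGSTU4 replicate 1 lowest. Genes are not independent of each other on 4 arrays, and these shares describe the arrays.

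The median distance between the WT replicates of a member was 0.51, between its 35S:OsGSTU4 replicates 0.27 and between the nearest arrays of the genotypes 0.40. In the other separated lower genes these medians were 0.16, 0.13 and 0.11. Over the other bright nuclear genes, separated or not, the median distance was 0.25 between WT replicates and 0.21 between 35S:OsGSTU4 replicates. The members' distance in 35S:OsGSTU4 was nearer to that of the other bright genes than to that of the other separated lower genes. These distances share their values with the rule, since arrays separated at a small difference must have close replicates. The WT arrays of 35 members were further apart than the genotypes, as were the 35S:OsGSTU4 arrays of 24 members, and in 8 members the WT arrays were 1 log2 unit or more apart. A gap larger than the spread within both genotypes was found in 22 members, beside 211 of all bright genes (4.45%), in a measure that shares its values with the rule. An example of close replicates with a wide gap was AT1G17860, at 10.85 and 10.75 in 35S:OsGSTU4 against 11.71 and 11.61 in WT, with a standard deviation of 0.07 in each genotype. The weakest separation was that of AT1G33030, at 8.41 and 7.99 against 9.59 and 8.46, where the nearest arrays were 0.04 apart and the difference was -0.25 without WT replicate 1 and -1.39 without WT replicate 2.

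**Figure D4:**
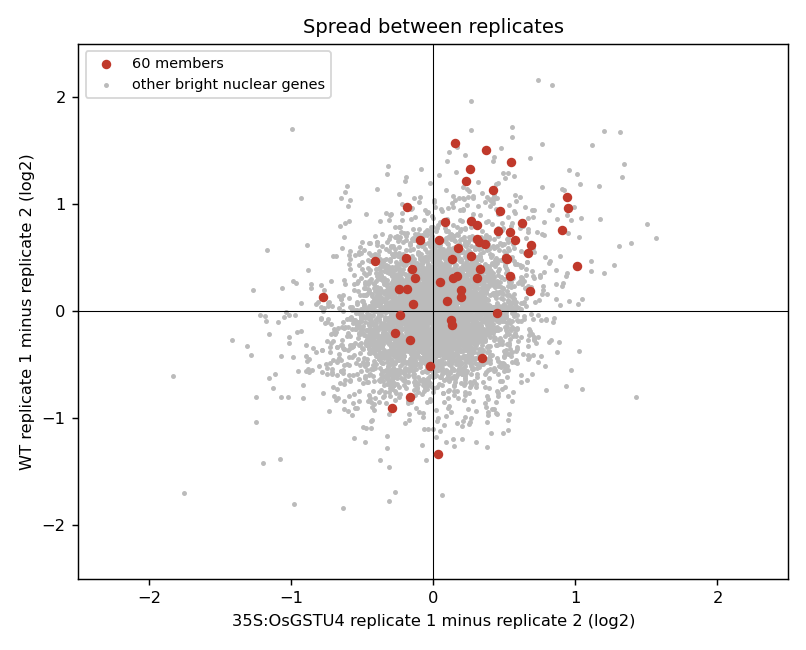
Replicate 1 minus replicate 2 in 35S:OsGSTU4 (log2, horizontal axis) and in WT (log2, vertical axis) for the 60 members in red and the other bright nuclear genes in grey, 1 point a gene, with 2 genes outside the axes of 2.5 in either direction. The cloud of grey points is centred on 0, while 49 red points lie above the horizontal line and 44 to the right of the vertical line.

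At the edge of the selection, AT5G17700 measured 7.70 and 7.67 in 35S:OsGSTU4 against 7.76 and 9.10 in WT. AT1G16670 measured 9.29 and 8.76 against 10.02 and 9.53, and AT2G28400 measured 8.71 and 8.04 against 9.40 and 8.85. All 3 had a difference of -0.75, and that of AT5G17700 rested on WT replicate 2, without which it was -0.08. Without 35S:OsGSTU4 replicate 2 the difference was -0.49 in AT1G16670 and -0.41 in AT2G28400, which was at -0.47 without WT replicate 1. Just outside, Fes1A, whose protein binds Hsp70 chaperones, measured 8.66 and 8.51 in 35S:OsGSTU4 against 9.41 and 9.24 in WT. AT1G09740 measured 8.79 and 9.08 against 9.86 and 9.48, and AT5G64120 (PRX71) measured 13.37 and 13.07 against 14.15 and 13.76. These 3 genes had differences of -0.74, so that the limit of the set falls in a continuous range. A single bright gene, CCOAMT, whose enzyme methylates a precursor of lignin, had a fold of 2 or more without separated arrays and brought the genes past that fold to 8 (0.169%), with 9.04 and 8.21 in 35S:OsGSTU4 against 10.73 and 8.61 in WT.

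Gene length and the place of a gene within the nuclear chromosomes were not used by the rule and are given as a description. The median length of a member gene, introns included, was 1658 bases, beside 2083 in the other separated lower genes and 2273 in all other bright genes. Chromosomes 1 to 5 held 19, 4, 10, 9 and 18 members. The share on chromosome 2 was 6.67%, beside 15.2% of the other bright genes, and that on chromosome 1 was 31.7%, beside 25.4%. Apart from AT4G12490 and AT4G12500, the nearest members in gene order were AT5G04760 and AT5G04830, 7 steps apart, and AT1G33030 and AT1G33110, 10 steps apart. The rule left out some symbols, in members and other genes alike, and among the genes it admitted a symbol other than the locus tag was held by 4 members (6.67%), beside 14.6% of the other bright genes, so that most members are known here by locus tag alone and receive no function.

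Markers of organs and RNA quality were read on the same arrays. Of 18 root genes listed, 3 were measured, and the log2 of their summed signal was 13.33 and 13.22 in 35S:OsGSTU4 against 13.50 and 13.52 in WT. That sum is mostly PYK10, the only bright one, with a mean of 13.37 and a difference of -0.23. The median of the 3 genes was 6.79 and 6.14 in 35S:OsGSTU4 against 7.11 and 7.17 in WT. For 6 measured of 46 nuclear photosynthesis genes the summed signal was 16.37 and 16.73 in 35S:OsGSTU4 against 16.13 and 16.66 in WT. None of these 9 genes was at 0 on any array. The 3′ over 5′ difference of the actin control was 4.07 and 3.76 in 35S:OsGSTU4 against 3.48 and 3.53 in WT, that of GAPDH 1.05 and 1.36 against 1.01 and 0.96, and that of ubiquitin 1.84 and 1.59 against 1.27 and 1.76. The actin and GAPDH differences were higher on both 35S:OsGSTU4 arrays, and those of ubiquitin overlapped. In 35S:OsGSTU4 95 and 59 probe sets were at 0, against 167 and 17 in WT. The summed and the median root signal were lower on both 35S:OsGSTU4 arrays. WT replicate 1 had the lowest photosynthesis signal and the most probe sets at 0. Their part in the member differences was not tested.

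When the 60 genes were selected again with an array left out, 21 to 35 of the members remained. Without WT replicate 1 the median difference of the 60 was -0.64 and 24 members shrank by over 1.5 times, while without WT replicate 2 it was -1.09 and 9 members grew by over 1.5 times. Without 35S:OsGSTU4 replicate 1 the median was -0.94, and without replicate 2 it was -0.76 with 9 members smaller by over 1.5 times. In 28 members the difference stayed within 1.5 times of its value whichever array was left out, among them AT3G60420, AT5G45630, AT4G33420, JRG21, AT4G38080, AT1G17860, AT1G10585 and MGL. AT3G60420 was the only member selected again under each of these 4 settings, but it dropped out when all probe sets of a gene were averaged and at a brightness limit of 9. Under all 10 settings tried, 0 members were selected again each time.

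**Figure D5:**
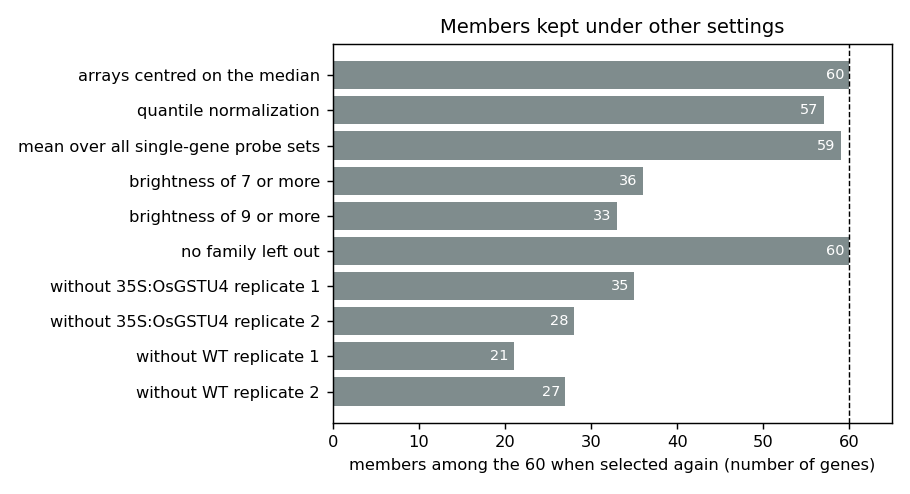
Number of the 60 members that were among the 60 genes selected again (horizontal axis) under each of 10 other settings (vertical axis), with a dashed line at 60. Scaling of the arrays kept 57 to 60 members, the brightness limits 33 and 36, and leaving out an array 21 to 35.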

How the data were processed

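The authors deposited a log2 signal for each of 22810 probe sets on each array. The submitters' notes name RMA, without a version. Yet the deposited log2 values have a trimmed mean (2nd to 98th percentile) near 500 on the linear scale, as scaled MAS5 signals do. They also have a floor at 0 on each array. The values were used as deposited, with 64 Affymetrix controls left out. The platform annotation gave 13513 probe sets a single gene. RefSeq genes (assembly TAIR10.1) were found for 13436 of them by Entrez ID and for 72 by symbol or locus tag, leaving 5 unmatched. Other probe sets had several genes (503) or none in that annotation. A gene is called measured if it had a matched probe set of its own. Other genes count as not measured, though the array may hold probe sets for them. Names and functions come only from these tables and the study's descriptions. The genome build of the probe annotation is not given in the sources used here, so no coordinates are printed.

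The members, the 25 gene lists and the tests were chosen with earlier results of these data known. All members could be named. Values on every array were given for the 20 most negative, for members on a list and for the 3 genes on each side of the limit, and of other list genes at most 4 by the size of their difference, to which CBL and genes sharing a name with a member were added after their values were seen. Standard errors come from limma 3.58.1 in R 4.3.3 (no replicate block). Over 22746 probe sets the limma test with Benjamini-Hochberg adjustment called 0 at an adjusted p of 0.05 (smallest 0.378) and 1317 at an unadjusted p under 0.05. At a fold of 2 and an unadjusted p of 0.05, 532 were lower (2.34%) and 542 higher. The fit was tested on simulated data. The series text calls the replicates biological and gives no more on their origin, and the spread between 2 arrays limits the precision. Other steps used Python 3.11.15, pandas 2.3.3 and matplotlib 3.10.9. Alternatives were other array scalings, brightness limits, probe set rules, a replicate block, a variance trend and leaving out each array. Promoter and protein sequences were not used here.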

Additional observations from a re-analysis of the deposited data

How the results depend on the processing

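A member difference was called moved if it shifted by at least the mean of the gene's standard deviations in the 2 genotypes. Of 420 member differences over 7 settings 56 moved, 22 without WT replicate 1 and 22 without WT replicate 2. The equal counts are fixed by the design, since leaving out either array of a genotype moves a difference equally in opposite directions. No sign was reversed, which the rule fixes when an array is left out and the balanced design fixes under a block. A block cannot move a difference at all here, so its share of the 420 is unmoved by construction. Leaving out an array gave member differences between -2.05 and -0.08, a median of -1.09 to -0.64, 21 to 35 members selected again, and 1441 to 1725 genes with separated lower arrays against 822, the last by construction, since a lone array is easier to separate. With a brightness limit of 7 or more 36 members were selected again, and with 9 or more 33, since other genes could enter or members dropped out. Centring each array on its median turned the split of separated genes to 1144 lower and 724 higher, against 822 and 1065 as deposited, and quantile normalization gave 933 and 906, while 60 and 57 members were selected again. The count of lower probe sets past a fold of 2 and an unadjusted p of 0.05 by limma was 532, and 286 with an intensity trend, 34 of 9410 with a mean of 8 or more, and 654 to 849 with an array left out, where the lone array was assumed to vary like the others. With the trend, 2 probe sets passed an adjusted p of 0.05, neither among the 4741 bright nuclear genes. Whether the replicate numbers pair the samples stays undecided with 2 numbers. The correlation between the deviations of same-numbered arrays was 0.05 over all probe sets and 0.24 over bright genes. A fit with the replicate number as a block gave 652. It made the standard error smaller in 41 members and larger in 19, with a median of 0.27 against 0.35, and for AT3G60420 it was 0.25 against 0.50. With 2 arrays a group, differences close to the spread of replicates could not be resolved.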
